A study of Mus musculus with 19 samples.

Results

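The genes of GDNF-RET signaling were measured in whole kidneys of mice at 3 weeks of age (postnatal day 21, strain B6C3F1/J). They are the 8 genes Gdnf, Ret, Gfra1, Etv4, Etv5, Spry1, Spry2 and Sox8, a set taken by name, out of 54146 gene identifiers in each library. The control group held 3 RNA libraries of mice with floxed alleles of Dnmt3a and Dnmt3b (Dnmt3ab f/f), which encode the de novo DNA methyltransferases. The KspCre DKO group held 2 RNA libraries of mice that carry the same floxed alleles and KspCre, a Cre recombinase under the Ksp-cadherin (Cdh16) promoter, whose activity lies in the ureteric bud and the tubule epithelium of the kidney. Both groups therefore share the floxed alleles, and no library of mice without them was analysed here. The question of the comparison is what the loss of both enzymes in that epithelium changes in the RNA of the kidney. The 14 bisulfite libraries of the series are not analysed here. Nothing in the labels ties the libraries of a group to different animals, so each p-value reflects only the spread among these libraries, which may be technical.

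GDNF is a ligand secreted by the mesenchyme of the embryonic kidney. It binds the co-receptor GFRA1 and the receptor tyrosine kinase RET on the ureteric bud, the epithelium that branches to become the collecting duct system. RET signals through ERK and PI3K, among other routes. Its signaling raises the ETS factors ETV4 and ETV5 in the bud tips, and the Sprouty proteins SPRY1 and SPRY2 restrain receptor tyrosine kinase signaling. Branching ends around the time nephron formation stops after birth, and in the mature organ these genes are used outside this setting as well, for example Sprouty genes in many cell types that respond to growth factors.

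The promoters of these genes are shown because the deleted enzymes act on CG dinucleotides, and the members differ in how many CG they hold at their starts. RefSeq (GRCm38.p6, the same build family as the mm10 of the files) gave 8 windows for 6 of the 8 members, each 300 bases long, from 250 bases before to 50 bases after an annotated start; windows of Ret and Etv4 are not used here. The 4 windows printed belong to the 2 most abundant members, to the ETS factor gene Etv5 and to the ligand gene. Each is written 5′ to 3′ on the strand of the gene, with every CG in capitals.
Spry1 (chr3:37639697-37639996, plus strand): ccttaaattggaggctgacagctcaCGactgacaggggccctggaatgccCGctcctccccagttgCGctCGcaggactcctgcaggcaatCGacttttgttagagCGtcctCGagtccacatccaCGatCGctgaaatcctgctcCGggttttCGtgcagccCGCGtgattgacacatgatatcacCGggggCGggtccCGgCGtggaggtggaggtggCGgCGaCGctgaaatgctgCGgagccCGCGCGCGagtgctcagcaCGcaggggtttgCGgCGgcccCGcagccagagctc
Spry2 (chr14:105896770-105897069, minus strand): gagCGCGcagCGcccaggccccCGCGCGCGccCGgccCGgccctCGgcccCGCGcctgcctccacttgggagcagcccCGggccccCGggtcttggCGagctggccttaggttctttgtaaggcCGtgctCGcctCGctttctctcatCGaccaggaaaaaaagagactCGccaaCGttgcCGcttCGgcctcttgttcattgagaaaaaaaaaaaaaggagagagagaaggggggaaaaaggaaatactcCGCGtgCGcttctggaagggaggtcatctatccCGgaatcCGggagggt
Etv5 (chr16:22439521-22439820, minus strand): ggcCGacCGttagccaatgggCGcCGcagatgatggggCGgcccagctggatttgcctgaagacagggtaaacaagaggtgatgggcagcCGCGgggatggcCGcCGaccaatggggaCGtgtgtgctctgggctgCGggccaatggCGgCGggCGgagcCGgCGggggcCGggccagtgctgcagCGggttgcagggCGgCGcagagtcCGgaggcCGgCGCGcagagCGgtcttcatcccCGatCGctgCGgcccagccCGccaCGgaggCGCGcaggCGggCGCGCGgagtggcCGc
Gdnf (chr15:7809798-7810097, plus strand): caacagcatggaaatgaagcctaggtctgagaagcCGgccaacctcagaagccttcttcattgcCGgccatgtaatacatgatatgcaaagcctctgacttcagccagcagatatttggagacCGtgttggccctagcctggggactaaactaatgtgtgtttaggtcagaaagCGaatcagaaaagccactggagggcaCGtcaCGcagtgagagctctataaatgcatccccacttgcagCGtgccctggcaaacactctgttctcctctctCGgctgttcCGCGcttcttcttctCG

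The Etv5 window held 37 CG, and 5.58% of the 32851 mouse windows of this length held as many or more. The Spry1 and Spry2 windows held 29 and 28 CG, a number reached by 12.9% and 14.2% of all windows. The Gdnf window held 11 CG, a number reached by 41.4% of all windows, where the median was 7. A second Gdnf start held 22 CG and a second Etv5 start 19, while the windows of Sox8 and Gfra1 held 21 and 12. No methylation value was analysed here, so these counts describe the sequence alone. The letters CCGGAA, a core bound by ETS factors that itself contains a CG, were searched on both strands and occurred once in the Spry2 window and once in the Gfra1 window, against 14.9% of all windows with a match. The letters ACAAAG, which fit the SOX consensus, occurred once in the Spry2 window and once in the second Etv5 window, against 18.7% of all windows.

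Expression was measured as TPM, a transcript abundance that is scaled for gene length and to the same sum in each library and keeps no read number. The depth of each library is therefore unknown. The libraries differed in complexity: 14710 genes were above 0 TPM in KspCre DKO replicate 2, against 18488 to 20510 in the other 4. Mitochondrially encoded genes held 31.0% of TPM in that library and 18.2% to 23.2% in the others. Of all 13963 genes tested (mean of at least 1 TPM), 79.3% were lower in KspCre DKO replicate 2 than in replicate 1. The deleted genes do not check the labels here: Dnmt3a stood at 13.2 to 18.97 TPM in the control libraries against 9.98 and 14.2 TPM under the KspCre DKO label, and Dnmt3b at 1.82 to 2.86 TPM against 2.29 and 3.25 TPM. Every direction below rests on the labels.

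None of the GDNF-RET genes passed the test between the groups. With limma on log2(TPM + 1), adjusted over all tested genes by Benjamini-Hochberg, 0 of the 4 members with a mean of at least 1 TPM were called at an adjusted p below 0.05, against 23 of 13963 genes (0.165%). At an unadjusted p below 0.05 the count was 1 of 4, Spry1, against 10.3% of all tested genes. The values of the groups overlapped for each of the 8 members, among them the 4 tested, while 26.1% of tested genes had groups that did not overlap. With no filter all 8 members entered the fit and 0 were called, with adjusted p of 0.701 to 0.999, against 0.0175% of 22920 genes. Among the 4 tested members 3 had a fold change below 0 and 1 above, and their median log2 fold change was -0.23. Over all tested genes the median was -0.14 and 61.7% lay below 0.

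**Figure D1:**
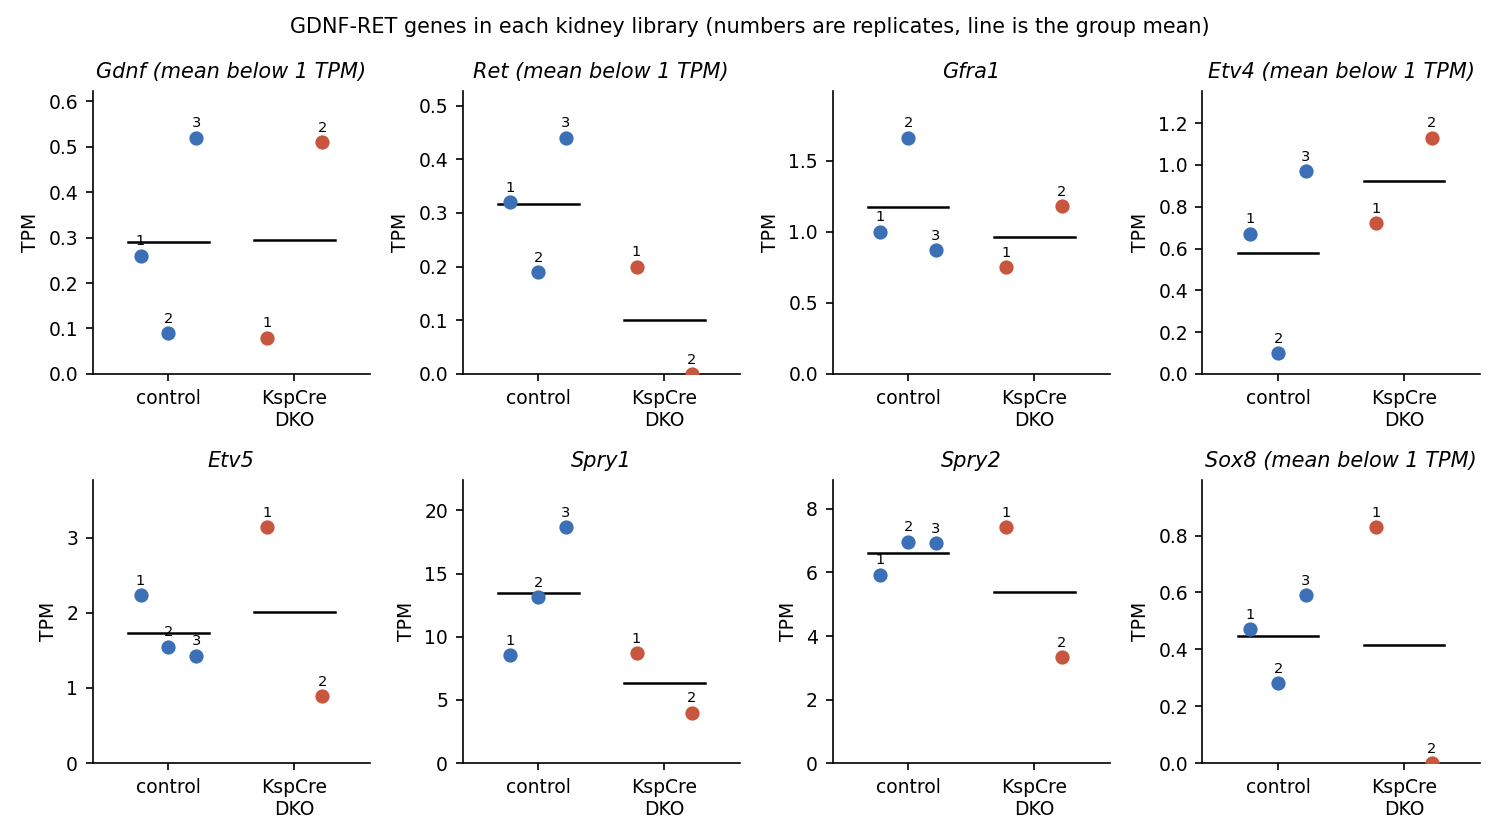
TPM (vertical axis, each panel from 0) of the 8 GDNF-RET genes in the 3 control libraries (blue) and the 2 KspCre DKO libraries (red), with the replicate number at each point and the group mean as a line. The groups overlap in each panel, and the KspCre DKO libraries lie on either side of the controls or far apart for Etv5 (3.14 and 0.89 TPM), Spry2 (7.43 and 3.34 TPM) and Sox8 (0.83 and 0 TPM).

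The ligand and its receptors were low in these libraries. Gdnf (ENSMUSG00000022144.4, chr15:7810048-7837580) stood at 0.26, 0.09 and 0.52 TPM in control replicates 1, 2 and 3 and at 0.08 and 0.51 TPM in KspCre DKO replicates 1 and 2. The lowest and highest values of the KspCre DKO group lie close to those of the controls, and the difference in mean log2(TPM + 1) was -0.0012 (exact permutation p = 1, two-sided). Ret (ENSMUSG00000030110.13, chr6:118151748-118197744), the receptor tyrosine kinase, stood at 0.32, 0.19 and 0.44 TPM in the control libraries and at 0.2 TPM in KspCre DKO replicate 1, and was listed at 0 in replicate 2. The value of KspCre DKO replicate 1 is just above that of control replicate 2, so the groups overlap (exact permutation p = 0.3). With 3 libraries against 2 there are 10 splits, and this test cannot give a p below 0.1.

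Gfra1 (ENSMUSG00000025089.15, chr19:58235581-58455946), the co-receptor that binds GDNF, was the most abundant of these 3 genes. It stood at 1, 1.66 and 0.87 TPM in the control libraries and at 0.75 and 1.18 TPM in the KspCre DKO libraries. KspCre DKO replicate 1 is below each control and replicate 2 lies inside their range. The log2 fold change was -0.14 ± 0.44 (SE; limma adjusted p = 0.934), with a 95% interval from -1.14 to 0.86, which includes differences in either direction.

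The ETS factor genes Etv4 and Etv5, which encode close relatives of the PEA3 group, did not share a pattern over the libraries. Etv4 (ENSMUSG00000017724.14, chr11:101769747-101785310) stood at 0.67, 0.1 and 0.97 TPM in the control libraries and at 0.72 and 1.13 TPM in the KspCre DKO libraries. Its highest value was that of KspCre DKO replicate 2 and its lowest that of control replicate 2. The means were 0.58 ± 0.44 TPM (SD, n = 3) and 0.93 ± 0.29 TPM (SD, n = 2), with an exact permutation p of 0.4. Etv5 (ENSMUSG00000013089.15, chr16:22381313-22439570) stood at 2.23, 1.55 and 1.43 TPM in the controls, at 3.14 TPM in KspCre DKO replicate 1 and at 0.89 TPM in replicate 2. These last values are the highest and the lowest of the 5, on opposite sides of the controls. The log2 fold change of Etv5 was 0.04 ± 0.46 (SE; limma adjusted p = 0.982), with a 95% interval from -1.02 to 1.11. Its sign changed with the KspCre DKO library that was kept: 0.61 when replicate 2 was left out and -0.52 when replicate 1 was.

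The Sprouty genes were the most abundant members. Spry1 (ENSMUSG00000037211.12, chr3:37639947-37644599), whose loss in mice lets extra ureteric buds form, stood at 8.54, 13.11 and 18.68 TPM in control replicates 1, 2 and 3. In the KspCre DKO libraries it stood at 8.69 and 3.98 TPM. KspCre DKO replicate 1 lies just above the lowest control and replicate 2 below every control. The means were 13.4 ± 5.08 TPM (SD, n = 3) and 6.34 ± 3.33 TPM (SD, n = 2). The log2 fold change was -0.99 ± 0.42 (SE). Its unadjusted limma p was 0.046, and after adjustment over all tested genes it was 0.476, so Spry1 did not pass. Its fold change was below 0 in the main comparison and under each of 16 alternative settings. It ranged from -1.47 when KspCre DKO replicate 1 was left out to -0.51 when replicate 2 was. These settings reuse the same 5 libraries and are not independent. Those that change only the filter or the variance trend give the same -0.99 by construction. The replicate block gave -0.74, the same estimate as without control replicate 3. Spry1 was not called under any of the 16 settings.

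Spry2 (ENSMUSG00000022114.5, chr14:105891947-105896819) varied little among the controls, at 5.93, 6.97 and 6.92 TPM. The KspCre DKO libraries stood at 7.43 and 3.34 TPM, the highest and the lowest of the 5. The log2 fold change was -0.33 ± 0.37 (SE; limma adjusted p = 0.79), with a 95% interval from -1.18 to 0.52. Without KspCre DKO replicate 2 it turned to 0.15 (adjusted p = 0.855).

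Sox8 (ENSMUSG00000024176.10, chr17:25565893-25570686), a SOXE transcription factor gene expressed in bud tips together with Sox9, stood at 0.47, 0.28 and 0.59 TPM in the controls. It stood at 0.83 TPM in KspCre DKO replicate 1 and was listed at 0 in replicate 2. As for Etv5 and Spry2, the KspCre DKO libraries hold the highest and the lowest value (exact permutation p = 0.8). An exact 0 in TPM may be a failed estimate, and 14710 genes above 0 in that library against at least 18488 in the others is the measured fact beside it.

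In 5 of the 8 members (3 of the 4 tested) KspCre DKO replicate 2 held the lowest value of the 5 libraries, as it did in 54.8% of all tested genes. On log2(TPM + 1), the gap between the KspCre DKO libraries was larger than the difference between the groups for 6 of the 8 members (3 of the 4 tested), and for 70.3% of all tested genes. The exceptions were Spry1, with a gap of -0.96 (replicate 2 minus replicate 1) beside a group difference of -0.99, and Etv4, with 0.31 beside 0.32. The largest gap among members was that of Etv5, at -1.13 beside a group difference of 0.04. Gdnf, Gfra1 and Etv4 were higher in KspCre DKO replicate 2 than in replicate 1, against the direction of most genes. The part of library complexity in these gaps was not tested.

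**Figure D2:**
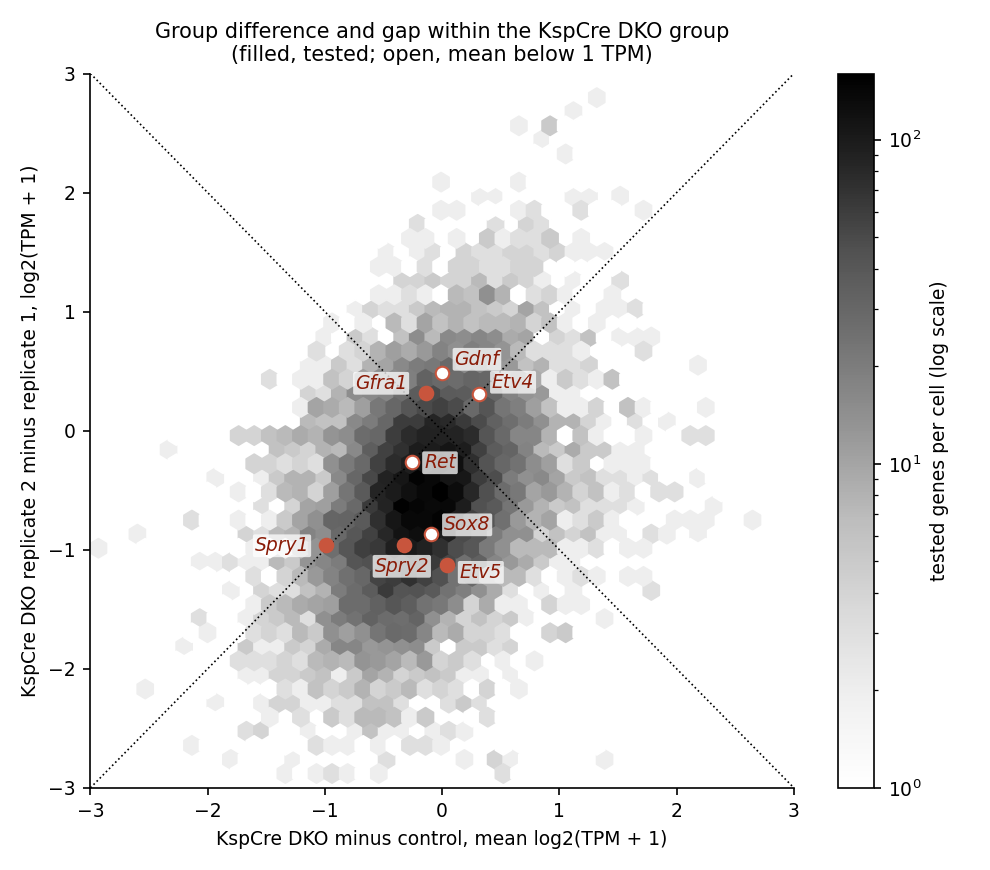
Each member (red) by its group difference (horizontal axis, KspCre DKO minus control, mean log2(TPM + 1)) and by the gap between the KspCre DKO libraries (vertical axis, replicate 2 minus replicate 1), over all 13963 tested genes in grey. Points above or below both dotted diagonals have a gap larger than the group difference; Etv5 lies far from zero on the vertical axis alone (-1.13), and Spry1 on both axes (-0.99 and -0.96).

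In the controls the order of levels was Spry1, Spry2, Etv5, Gfra1, Etv4, Sox8, Ret and Gdnf. Since TPM is scaled for length, these levels can be set side by side. Spry1 and Spry2 did not overlap in the controls, and neither did Spry2 and Etv5. From Etv5 downward each neighbouring pair overlapped: Etv5 had 1.43 to 2.23 TPM and Gfra1 0.87 to 1.66 TPM, Etv4 reached 0.97 TPM, Sox8 0.59 TPM, Ret 0.44 TPM and Gdnf 0.52 TPM. Among genes above 0 in a control library, Spry1 ranked on average at percentile 67.0, Spry2 at 53.9, Etv5 at 33.7 and Gfra1 at 29.1, while Ret and Gdnf ranked at 15.4 and 13.5.

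Ratios between members within a library do not depend on its scaling. Spry1 exceeded Spry2 by 1.44, 1.88 and 2.70 times in the controls and by 1.17 and 1.19 times in the KspCre DKO libraries. The KspCre DKO ratios were close to each other and below every control, a difference of -0.72 on the log2 scale (exact permutation p = 0.2, and 0.9 after Benjamini-Hochberg adjustment over the 6 pairs of tested members). The ratio of Etv5 to Spry1 was 0.26, 0.12 and 0.077 in the controls against 0.36 and 0.22 (exact permutation p = 0.3, adjusted 0.9). The groups overlapped for Etv5 to Spry1 and for the other 4 pairs, which had permutation p of 0.5 to 1. With a smallest possible p of 0.1, this test cannot show a difference of any ratio.

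Genes most like a member were sought where its log2(TPM + 1) ranged over at least 1 unit, which left Etv5 and Spry1. The measure was the Euclidean distance between profiles over the 5 libraries, each centred on its own mean. The nearest to Etv5 among 11561 genes were Zfp24 and Tcea3, at distances of 0.048 and 0.052, but 1259 genes lay within 0.5 of it. Zfp24 stood at 11.04, 8.31 and 8.18 TPM in the control libraries and at 14.14 and 5.86 TPM in the KspCre DKO libraries. Its highest and lowest values lie in that group, which follows from its choice by likeness to Etv5. The nearest to Spry1 were Cdhr4 and Timp1, at distances of 0.15 and 0.26, and 71 genes lay within 0.5. Cdhr4 stood at 1.89, 3.38 and 4.92 TPM in the control libraries and at 1.62 and 0.46 TPM in the KspCre DKO libraries.

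The wider pathway was described by 8 lists of 107 genes, of which 102 were measured and 80 tested. With limma 0 of the 80 were called over all genes, the smallest adjusted p being 0.188, and 11 had an unadjusted p below 0.05 (13.8%, against 10.3% of all tested genes). Of the 80, 52 had a fold change below 0 and 28 above, with a median of -0.14, the same to 2 decimals as for all tested genes. The groups did not overlap for 26 of them (32.5%, against 26.1%), 12 higher and 14 lower in KspCre DKO, against 10.5% and 15.6% of all tested genes.

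Genes listed as regulators of Gdnf lay mostly below 0. The list separates neither genes that raise Gdnf from genes that restrict it nor the cells that make them. Its direction is therefore not a direction of input to Gdnf. Of 18 tested, 15 had a fold change below 0 and 3 above, and the median was -0.40 on the log2 scale, against 61.7% below 0 and a median of -0.14 over all genes. The groups did not overlap for 6 lower and 1 higher of the 18, against 15.6% and 10.5% of all tested genes. Without KspCre DKO replicate 2, 13 of 18 were below 0 with a median of -0.21, against 38.5% of genes and a median of 0.13 in that comparison. Npnt, nephronectin, the ligand of the integrin ITGA8 that sustains Gdnf in the embryo, stood at 118, 142 and 181 TPM in the control libraries and 90.8 and 52.1 TPM in the KspCre DKO libraries. Each KspCre DKO value is below each control (log2 fold change -1.06 ± 0.33 SE, limma adjusted p = 0.309). Gdf11, a TGF-beta family ligand needed for Gdnf expression, stood at 1.85, 2.36 and 3.91 TPM against 0.67 and 0.28 TPM (log2 fold change -1.30 ± 0.44 SE, limma adjusted p = 0.35). In the other direction lay Pax8, a paired-box factor gene, at 66.2, 85.8 and 84.5 TPM in the control libraries and 161.6 and 95.2 TPM in the KspCre DKO libraries, without overlap (limma adjusted p = 0.514). Its relative Pax2 stood at 15.97, 20.2 and 35.4 TPM against 66.5 and 30.9 TPM, with overlap (limma adjusted p = 0.498). Several marker lists also lay below 0. Each of the 8 tested markers of fibroblasts and stroma did, with a median of -0.77, and of -0.99 without KspCre DKO replicate 2. So did each of 6 thick ascending limb (median -1.40), 6 intercalated cell (-0.72) and 5 macrophage markers (-0.74). Medians were above 0 for principal cell (0.76), urothelium (0.31) and proximal tubule markers (0.20). The part of any of these cell types in the levels of the regulators was not tested. The nephron progenitor factor gene Six2 was listed at 0 in 4 libraries and at 0.09 TPM in control replicate 3.

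Of the regulators of Ret in the bud epithelium, 10 were tested, and 6 lay above 0 and 4 below, with a median of 0.08. Gata3, a zinc finger factor that acts upstream of Ret in the nephric duct, stood at 16.1, 17.1 and 15.1 TPM in the control libraries and at 38.5 and 34.7 TPM in the KspCre DKO libraries (log2 fold change 1.14 ± 0.27 SE, limma adjusted p = 0.188). Emx2, a homeobox gene of the bud, stood at 26.3, 22.3 and 13.7 TPM against 47.6 and 45.3 TPM (log2 fold change 1.17 ± 0.33 SE, limma adjusted p = 0.271). Fgfr2, the receptor for mesenchymal FGFs, stood at 25.4, 36.9 and 19.2 TPM against 48.4 and 68.3 TPM (limma adjusted p = 0.318). The groups did not overlap for these 3 of the 10 genes, all higher in KspCre DKO, against 10.5% of all tested genes. They did not overlap for 1 lower gene either, against 15.6%: Rarb, a retinoic acid receptor gene, stood at 6.97, 5.96 and 6.29 TPM in the control libraries and at 4.76 and 2.86 TPM in the KspCre DKO libraries (limma adjusted p = 0.556). Gata3 is also in the marker list of smooth muscle and mesangium used here. It was the 1 gene above 0 of the 5 tested in that list, with 4 below. The part of cell types in the levels of the regulators of Ret was not tested. Ret itself stayed at or below 0.44 TPM in every library.

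Genes listed as other RET targets of the bud tip were split, with 4 of 8 tested above 0 and 4 below. The list was set by name and includes genes of wider epithelial use such as Cdh1. No response of its genes to RET was measured here. The groups did not overlap for 4 higher and 3 lower of the 8, against 10.5% and 15.6% of all tested genes, and 3 of the 8 had an unadjusted p below 0.05, against 10.3%. None of the 8 passed limma's test over all genes. Wnt11, a Wnt ligand of the bud tip that maintains Gdnf, stood at 6.85, 7.55 and 11.5 TPM in the control libraries and at 4.67 and 3.66 TPM in the KspCre DKO libraries, without overlap (log2 fold change -0.88 ± 0.34 SE, limma adjusted p = 0.427). Cdh1, E-cadherin of epithelial junctions, stood at 44.4, 42.2 and 42.2 TPM against 84.3 and 59.2 TPM (limma adjusted p = 0.425).

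Feedback inhibitors other than the Sprouty members, 10 tested, were 4 above 0 and 6 below, with a median of -0.17. When KspCre DKO replicate 2 was left out, 4 of the 10 lay below 0, with a median of 0.19. In that comparison 38.5% of all genes lay below 0, with a median of 0.13. Lrig1, a transmembrane inhibitor of receptor tyrosine kinases, stood at 5.53, 2.63 and 5.23 TPM in the control libraries and at 10.3 and 10.8 TPM in the KspCre DKO libraries (log2 fold change 1.12 ± 0.37 SE, limma adjusted p = 0.338). Dusp6, the ERK phosphatase gene induced by ERK activity, stood at 10.3, 8.07 and 12.9 TPM against 14.7 and 16.3 TPM (limma adjusted p = 0.589). Of the 10, these 2 had groups without overlap, both higher in KspCre DKO, beside 26.1% of all tested genes in either direction.

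The 23 tested signal transducers downstream of RET, from the adaptors Shc1, Frs2 and Grb2 to the kinase Mapk3, were 7 above 0 and 16 below, with a median of -0.12. This direction rested on KspCre DKO replicate 2. When it was left out, 5 of the 23 lay below 0, with a median of 0.21. Over all genes in that comparison 38.5% lay below 0, with a median of 0.13. Grb10, an imprinted adaptor gene that binds RET, stood at 13.5, 16.0 and 18.2 TPM in the control libraries and at 10.2 and 4.51 TPM (log2 fold change -1.09 ± 0.37 SE, limma adjusted p = 0.36). Nras stood at 16.5, 14.3 and 16.8 TPM against 18.3 and 35.6 TPM (limma adjusted p = 0.557), with the higher value in KspCre DKO replicate 2. Among the other ligands of the GDNF family, Nrtn (neurturin) stood at 4.94, 7.13 and 4.26 TPM against 2.37 and 3.29 TPM (limma adjusted p = 0.529), and Pspn was listed at 0 in each library. Gdf15, a distant stress-induced ligand that signals through RET and GFRAL, stood at 5.32, 4.48 and 6.09 TPM in the controls, 5.83 TPM in KspCre DKO replicate 1 and 19.5 TPM in replicate 2 (limma adjusted p = 0.548), while Gfral was listed at 0 in each library.

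Of the 5 tested FGF genes 1 lay above 0 and 4 below. When KspCre DKO replicate 2 was left out, 1 of the 5 lay below 0, with a median of 0.11. All genes in that comparison had a median of 0.13, with 38.5% below 0. Fgf9 stood at 8.63, 19.3 and 15.8 TPM in the control libraries and at 8.21 and 7.51 TPM in the KspCre DKO libraries (limma adjusted p = 0.541). Fgfr3 stood at 23.6, 48.1 and 30.6 TPM against 33.1 and 11.4 TPM (limma adjusted p = 0.645). Fgf8 and Fgf20 were listed at 0 in each library. The relatives Etv1, Sox9 and Sox10 were below the filter; Sox9, the partner of Sox8 in bud tips, stood at 0.08 to 0.12 TPM in the control libraries and at 0.13 and 0.19 TPM.

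**Figure D3:**
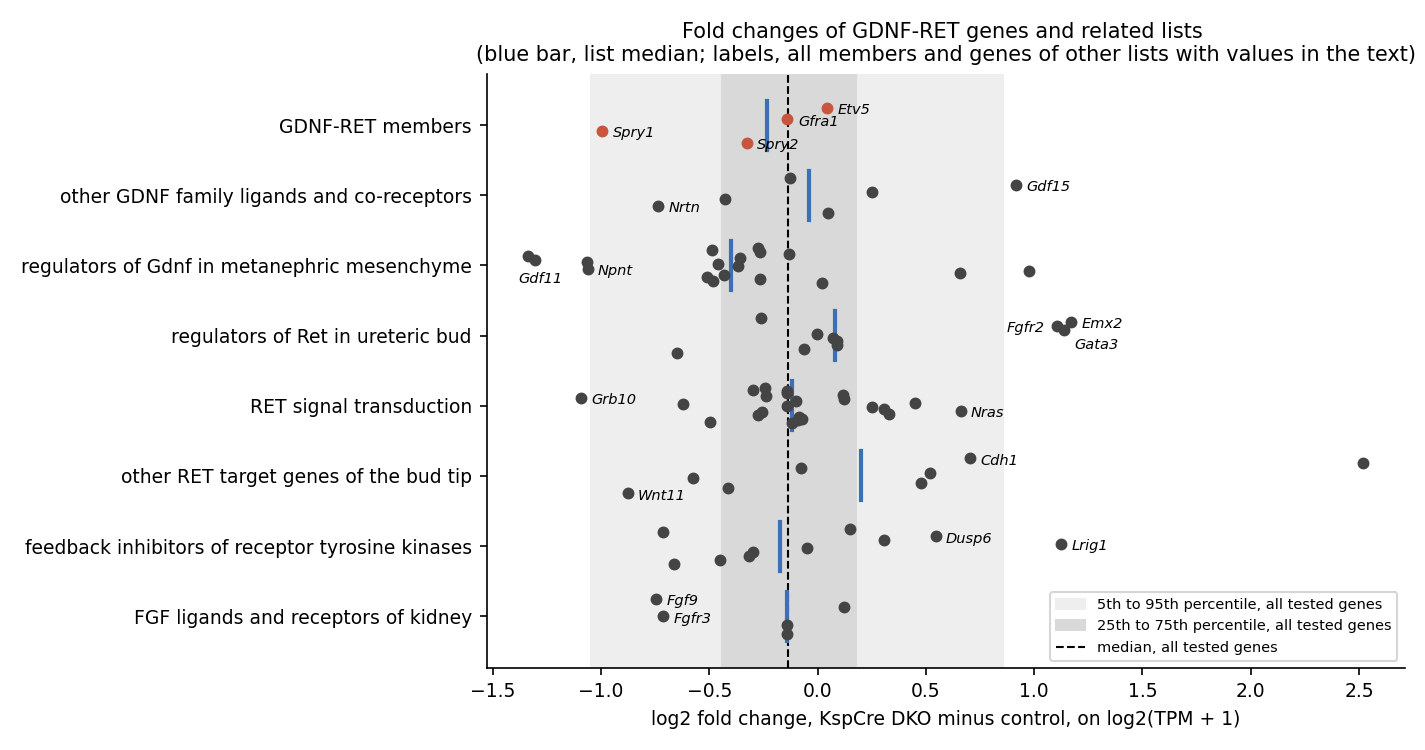
Log2 fold change (horizontal axis, KspCre DKO minus control, on log2(TPM + 1)) of each tested gene in the GDNF-RET set (red) and 7 related lists with tested genes (black), with list medians as blue bars and the spread of all tested genes as grey bands. The list upstream of Gdnf has its median at -0.40, left of the dashed median of all genes at -0.14, and none of the genes drawn passed the test over all genes.

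Levels in whole kidney depend on the cells present, and fewer cells of a type cannot be told apart from less RNA per cell. The tissue label fits the defining markers of the tubule, all measured in each library: Slc34a1 of the proximal tubule, Umod of the thick ascending limb and Aqp2 of the collecting duct. The summed level of 8 collecting duct principal cell markers, the descendants of the ureteric bud, was 1043 to 1113 TPM in the control libraries and 2521 and 2513 TPM in the KspCre DKO libraries. None of them passed the test over all genes, 5 of 8 lay above 0, and Aqp2 came closest (limma adjusted p = 0.0512). Most of the higher sum came from 2 genes, Aqp2, at 240 to 426 TPM against 1414 and 1218 TPM, and Fxyd4, at 228 to 340 TPM against 541 and 755 TPM. The sodium channel subunit genes Scnn1b and Scnn1g lay below every control, at 45.5 and 43.1 TPM against at least 45.7 TPM and at 25.9 and 25.3 TPM against at least 26.6 TPM. Intercalated cell markers, also of the collecting duct, summed to 183 to 240 TPM against 160.4 and 122 TPM, and each of the 6 lay below 0. The sum of 6 thick ascending limb markers was 1206 to 1321 TPM against 556 and 304 TPM, and all 6 lay below 0. The sum of 9 fibroblast and stromal markers was 104 to 251 TPM in the control libraries and 81.7 and 117 TPM in the KspCre DKO libraries. Dpt and Lum were listed at 0 in KspCre DKO replicate 2. The 5 macrophage markers summed to 50.7 to 97.5 TPM against 42.7 and 30.1 TPM, and each lay below 0. The sum of 7 endothelial markers was 243 to 398 TPM against 390 and 246 TPM. KspCre DKO lay lower without overlap for 4 of 8 tested stromal, 5 of 6 thick ascending limb and 4 of 6 intercalated cell markers. The same held for 3 of 5 macrophage and 0 of 7 endothelial markers, against 15.6% of all tested genes. Of the 8 principal cell markers, 5 lay higher and 2 lower without overlap, against 10.5% and 15.6%.

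Schwann cells and nerves, where Ret, Gfra1 and Sox10 are also known to be expressed, gave sums of 14.2 to 18.9 TPM in the control libraries and 27.1 and 10.4 TPM in the KspCre DKO libraries. Most of each sum came from Erbb3. Ngfr and S100b were listed at 0 in KspCre DKO replicate 2 and above 0 in the other libraries, while Foxd3 and Th were at 0 in that library and in 2 others each. The 5 nephron progenitor markers summed to 20.1 to 26.4 TPM against 21.96 and 9.79 TPM, with Cited1 and Six2 listed at 0 in KspCre DKO replicate 2. The part of these cell types in the levels of the GDNF-RET genes was not tested.

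**Figure D4:**
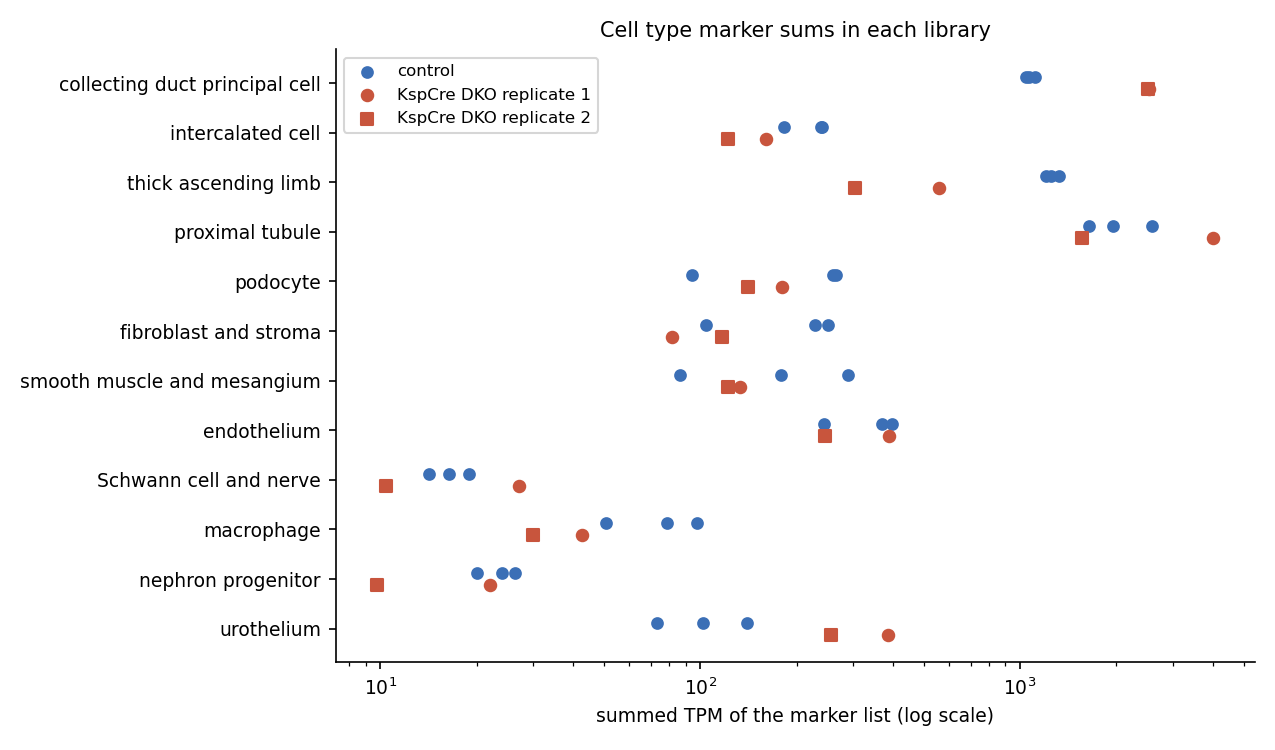
Summed TPM (horizontal log axis) of 12 marker lists in the 3 control libraries (blue), KspCre DKO replicate 1 (red circles) and KspCre DKO replicate 2 (red squares). Collecting duct principal cell markers lie at 2521 and 2513 TPM in the KspCre DKO libraries, above the controls at 1043 to 1113 TPM, and thick ascending limb markers lie below theirs.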

How the data were processed

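Polyadenylated RNA of whole kidneys was sequenced, per the labels' protocols. STAR 2.2.1, RSEM 1.3.1 and the build mm10 are named, beside tools for trimming and bisulfite reads, in the submitters' processing notes. Neither annotation release nor counting strand is given in the sources used here. The deposited values are TPM per gene, with 1 file per library. Of 54146 identifiers, 96.9% were paired with a symbol.

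The test was limma 3.58.1 (R 4.3.3) on log2(TPM + 1), with an intensity trend, for the 13963 genes whose mean over the 5 libraries reached 1 TPM; adjusted p below 0.05 was called. Members below that level were compared by exact permutation of mean log2(TPM + 1) (scipy 1.17.1). The fold change understates differences of low genes. Coordinates and promoters are from RefSeq GRCm38.p6, matched by symbol.

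The members and lists were chosen with earlier results of these data known. Named from each list were the 2 tested genes of smallest p, except for an item that is not reported here. Other genes, among them Fgfr2, Wnt11, Pax2, Pax8, Rarb, Pspn, Gfral, Six2, Sox9, Fgf8 and Fgf20, were chosen after their values were seen. Listed genes without a measured row are not analysed here. Alternatives were other pseudocounts, filters, scalings and variance settings, the replicate block and each library left out.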

Additional observations from a re-analysis of the deposited data

How the results depend on the processing

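No GDNF-RET gene that entered a fit was called by limma in the main comparison or in the 16 alternatives run. Gdnf, Ret, Etv4 and Sox8 entered only the fit without a filter (Gfra1 and Etv5 leave the test at a mean of at least 5 TPM, and Gfra1 without control replicate 2). The number of genes called over all genes moved from 23 (14 higher, 9 lower) to 14 and 39 with pseudocounts of 0.1 and 5, to 4 without a filter, to 9 without a trend and to 5 with array weights. It was 42 (35 higher, 7 lower) with quantile normalization, 37 (26 and 11) after rescaling without mitochondrial genes and 31 (24 and 7) with median-of-ratios scaling, which moved the median of all genes from -0.14 to between -0.04 and -0.02. Leaving out 1 library gave 6 to 560 calls: 59, 10 and 8 without control replicates 1, 2 and 3, 560 when KspCre DKO replicate 1 was left out and 6 when replicate 2 was. In the last 2 the remaining library is assumed to vary like the controls.

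With the replicate number as a block 75 genes were called, none of them a member, and the log2 fold change of Etv5 was -0.037; control replicate 3 has no partner there. The numbers were not taken to pair the libraries, because nothing in the labels says that they do. The correlation of deviations was 0.093 for the libraries numbered 1 and 0.028 for those numbered 2. It was 0.071 for control replicate 3 and KspCre DKO replicate 2. The deviations of 2 KspCre DKO libraries mirror each other, so these correlations cannot decide the question. The sign of Etv5 also turned with a pseudocount of 0.1 (-0.011). Over the libraries left out its fold change ranged from -0.52 to 0.61, and it was -0.0022 without control replicate 2. Without control replicate 3 it was -0.037, the same estimate as with the block, where that library has no weight in the fold change. Gfra1 turned to 0.057 with quantile normalization and to 0.020 without KspCre DKO replicate 1, and ranged from -0.30 to 0.020 over the libraries left out. Spry2 ranged from -0.81 to 0.15, the latter without KspCre DKO replicate 2. Below 1 TPM the pseudocount sets the size: at 0.1 the difference in mean log2 value was -1.22 for Ret, 0.87 for Etv4 and -0.80 for Sox8, and at 5 it was -0.060 for Ret. Without KspCre DKO replicates 1 and 2 Sox8 gave -0.53 and 0.34. The depth of the libraries is unknown, so no floor for the low members can be given.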
